A study of Mus musculus with 23 samples.

Results

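Fos is an immediate-early gene, one of a set whose transcripts appear within minutes of a stimulus without new protein synthesis. Calcium and cAMP signals reach its promoter through kinases that act on CREB and on serum response factor, and its protein joins Jun proteins to form the AP-1 transcription factor. In the hypothalamus Fos RNA is widely used as a mark of recent neuronal activity, and tissue dissociation is also known to raise it. The 8 cells with the highest Fos level (the Fos-highest cells) were compared with the 8 cells with the lowest (the Fos-lowest cells), out of 23 single neurons, and genes outside the immediate-early set that move with Fos are described. The 7 cells between the groups, called the middle cells, entered neither group.

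Each of the 23 libraries holds the RNA of 1 neuron of the mouse arcuate hypothalamus, a nucleus with neurons that govern feeding, growth and reproduction. All cells, in either Fos group, were GFP+ cells of vGLUT2-IRES-Cre::loxSTOPlox-L10-GFP mice, which were male young adults on a mixed background. In this line Cre is made under the gene of the glutamate transporter VGLUT2 and removes a stop signal before a GFP-tagged ribosomal protein, so GFP marks cells that made Cre at any earlier time. The tissue was cut, digested with papain and triturated, the cells were picked by hand, and no treatment sets any of them apart. The cells came from 2 mice and the labels do not say which cell came from which mouse, so cells are not replicates, no p-value is given, and each comparison describes these 23 cells. Each cell carries a number from 1 to 23, given in accession order. The titles of 15 cells start with JCb5.2 and of 8 cells with JCb6, with nothing in the labels to say what these prefixes mark.

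Expression is given in FPKM, the sequenced fragments of a gene divided by its transcript length and by the size of the library. Fos chose the groups, so its values are a description only. In the Fos-highest cells Fos ran from 1217 to 2469 FPKM (median 1383) and in the Fos-lowest cells from 11.2 to 412 FPKM (median 338). The middle cells lay between 421 and 1175 FPKM, so the cells on both sides of each limit were close: 1217 and 1175 FPKM at the upper limit, 421 and 412 FPKM at the lower. Fos was at or above 1 FPKM in all 23 cells, and the groups are cells with more and with less Fos rather than cells with and without it. Cells 9 and 16, with 25.0 and 11.2 FPKM, stood apart from the other Fos-lowest cells, which began at 319 FPKM. Slc17a6, which encodes VGLUT2, was at or above 1 FPKM in 8 of 8 Fos-highest and 8 of 8 Fos-lowest cells.

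**Figure D1:**
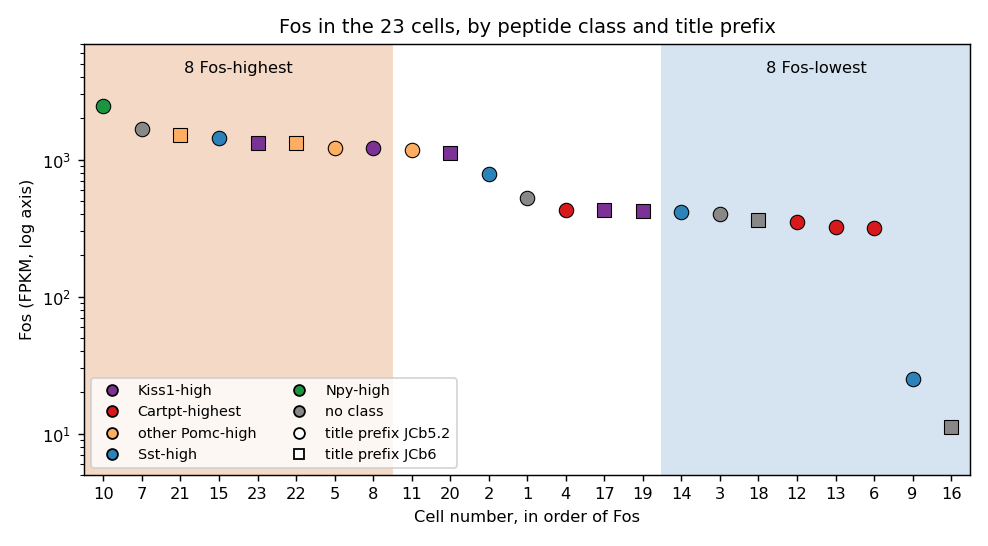
Fos in FPKM on a log axis for the 23 cells, ordered from the highest to the lowest; colour gives the peptide class, circles and squares the title prefix, and shading the 8 Fos-highest and 8 Fos-lowest cells. Both prefixes occur in both groups, the Cartpt-highest cells lie between 319 and 431 FPKM, and cells 9 and 16 lie far below the rest.

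The promoters of 5 genes are shown. Fos chose the groups, and Dusp1 and Dnajb1 had the rank orders most like that of Fos among all genes compared. Hspa1a was named after its values were seen, and Fosb belongs to the same gene family as Fos. Genes with larger differences between the groups, such as Egr4 and Nr4a1, are not shown. Each is the stretch of 250 bases that ends at the base before the RefSeq transcript start, on the gene's strand, in build GRCm38.p6. Capitals mark TGACG or its reverse complement CGTCA (the core of the cAMP response element bound by CREB), TGACGTCA (the full element) and TATAAA.
Fos (chr12:85473640-85473889, plus strand): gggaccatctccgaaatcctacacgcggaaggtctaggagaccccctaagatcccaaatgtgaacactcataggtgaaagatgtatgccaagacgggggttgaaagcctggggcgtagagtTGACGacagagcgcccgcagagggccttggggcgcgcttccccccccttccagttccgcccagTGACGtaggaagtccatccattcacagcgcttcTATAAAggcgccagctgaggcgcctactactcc
Fosb (chr7:19310046-19310295, minus strand): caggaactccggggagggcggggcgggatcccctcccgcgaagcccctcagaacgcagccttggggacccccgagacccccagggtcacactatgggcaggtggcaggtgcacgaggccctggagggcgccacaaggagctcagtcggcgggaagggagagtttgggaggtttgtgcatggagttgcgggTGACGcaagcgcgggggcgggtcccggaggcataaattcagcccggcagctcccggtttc
Dusp1 (chr17:26508473-26508722, minus strand): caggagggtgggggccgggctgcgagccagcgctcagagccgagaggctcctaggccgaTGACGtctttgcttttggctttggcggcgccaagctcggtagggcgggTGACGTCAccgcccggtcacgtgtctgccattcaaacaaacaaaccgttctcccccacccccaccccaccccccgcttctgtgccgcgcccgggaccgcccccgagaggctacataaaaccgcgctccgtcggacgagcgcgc
Dnajb1 (chr8:83607925-83608174, plus strand, the first of 2 starts listed): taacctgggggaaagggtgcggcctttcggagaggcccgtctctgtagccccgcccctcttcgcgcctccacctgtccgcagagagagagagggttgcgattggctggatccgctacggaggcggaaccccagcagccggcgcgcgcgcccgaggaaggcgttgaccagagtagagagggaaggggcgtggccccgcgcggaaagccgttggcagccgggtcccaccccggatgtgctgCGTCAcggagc
Hspa1a (chr17:34972157-34972406, minus strand): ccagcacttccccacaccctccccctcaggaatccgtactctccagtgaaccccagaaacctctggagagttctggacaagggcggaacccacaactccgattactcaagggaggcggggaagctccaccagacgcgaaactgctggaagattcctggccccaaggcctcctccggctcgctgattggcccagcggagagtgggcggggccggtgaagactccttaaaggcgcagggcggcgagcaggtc
The Fos stretch held TGACG at -129 to -125 and at -66 to -62 from the start, and TATAAA at -33 to -28. The Dusp1 stretch held the full element TGACGTCA at -143 to -136 and a further TGACG at -191 to -187. Fosb had TGACG at -60 to -56, Dnajb1 had CGTCA at -11 to -7, and none of the letters searched was in the Hspa1a stretch.

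A gene was compared when its locus was at least 300 bp long and it reached 1 FPKM in at least 5 of the 23 cells, which left 9971 genes. Differences are means of log2(FPKM + 1) in the Fos-highest minus the Fos-lowest cells, a scale that understates the differences of low genes. A gene was called higher when this difference was at least 1, a 2-fold ratio, and the value was higher in the Fos-highest cell in at least 56 of the 64 pairs of a Fos-highest with a Fos-lowest cell. Lower was called by the mirror image. The immediate-early list had 47 genes, all in the table, of which 39 were compared. Apart from Fos, which met the rule by construction, 7 of 38 were called higher (18.4%) and 0 lower, beside 0.391% and 0.682% of all 9970 genes other than Fos. The 7 were Fosb, Jun, Egr1, Egr4, Nr4a1, Dusp1 and Zfp36. A 2-fold difference alone was passed upward by 20 of the 38 (52.6%, beside 7.43% of all genes) and downward by 2 (5.26%, beside 10.2%), Myc at -1.44 and Ier3 at -1.30. Zfp36, Myc and Ier3 were named after their values were seen.

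Dusp1, a phosphatase that switches off MAP kinases, had the rank order most like that of Fos among all genes compared. It ran from 427 to 966 FPKM (median 630) in the Fos-highest cells and from 3.25 to 193 FPKM (median 101) in the Fos-lowest cells. The groups did not overlap, and the difference was 3.44 (SD 0.44 and 1.74 over 8 cells each). Its Spearman rho with Fos was 0.88 over the 23 cells and 0.75 over the 7 middle cells, which had no part in the call. Without cells 9 and 16 the Dusp1 difference was 2.70. Dusp1 lies on the minus strand at chr17:26505591-26508472 of mm10, the build of the deposited table, and Fos on the plus strand at chr12:85473901-85477270.

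Egr1, a zinc-finger transcription factor, ran from 220 to 1789 FPKM (median 418) in the Fos-highest cells and from 3.96 to 109 FPKM (median 30.8) in the Fos-lowest cells. These groups did not overlap either, with a difference of 3.92. In the middle cells, however, the rho of Egr1 with Fos was -0.43. Fosb, a close relative of Fos, ran from 111 to 362 FPKM against 1.24 to 114 FPKM, with 63 of 64 pairs in 1 direction and a difference of 2.43, and its rho in the middle cells was -0.54. Nr4a1, an orphan nuclear receptor, ran from 48.9 to 439 FPKM against 0.783 to 237 FPKM, and only cell 18 of the Fos-lowest cells, at 237 FPKM, lay inside the range of the Fos-highest cells. Egr4 had the largest difference of the list, 4.07, with 1.05 to 722 FPKM against 0.376 to 16.95 FPKM. Jun, the partner of Fos in AP-1, ran from 134 to 819 FPKM against 2.36 to 273 FPKM, so that its groups overlapped, and its difference was 2.25. Without cells 9 and 16 the difference of Jun was 1.17, that of Egr1 3.46, of Fosb 2.02, of Nr4a1 3.63 and of Fos itself 2.04, against 3.13 with them.

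Other immediate-early genes missed the call by various margins. Ppp1r15a, a phosphatase subunit of the stress response, ran from 31.1 to 196 FPKM against 0.392 to 115 FPKM and missed it by 1 pair (55 of 64, difference 2.72), and Sik1 by 2 pairs (54 of 64, 1.87). Arc, which acts at synapses, differed by 2.37 but overlapped widely (0.0464 to 144 FPKM against 0.177 to 32.3 FPKM, 49 of 64 pairs). Junb had 53 of 64 pairs and Npas4, a neuronal transcription factor induced by calcium, 50 of 64. Jund, Rhob, Tob1 and Btg1 differed by 0.35, -0.38, 0.09 and 0.22. The 2 cells with the least Fos were not low in every gene of the list, nor alike. Cell 16 had 93.6 FPKM of Fosb, 112 of Jund and 111 of Rhob, against 3.96 FPKM of Egr1 and 3.79 of Junb. Cell 9 had 32.3 FPKM of Arc and 52.1 of Junb, against 1.24 FPKM of Fosb and 3.25 of Dusp1.

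**Figure D2:**
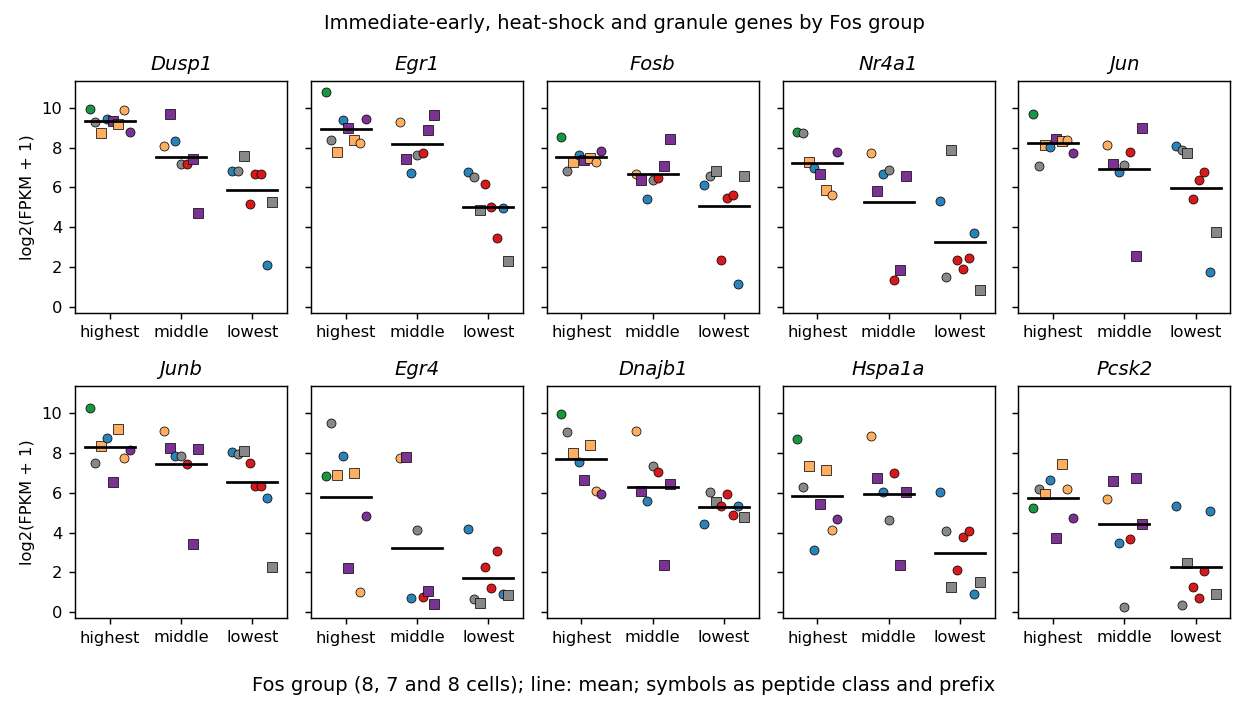
log2(FPKM + 1) of 10 genes in the 8 Fos-highest, 7 middle and 8 Fos-lowest cells; each symbol is a cell, coloured by peptide class and shaped by title prefix as in the plot of Fos by cell, and lines are group means. Dusp1 and Egr1 separate the outer groups without overlap (64 of 64 pairs), while Pcsk2 and Hspa1a overlap.

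Outside the immediate-early list 9932 genes were compared. Of these, 32 were called higher (0.322%) and 68 lower (0.685%) in the Fos-highest cells. A 2-fold difference alone was passed by 721 genes upward (7.26%) and 1017 downward (10.2%). Only 1 of the 9932 genes, Armcx6, whose groups were parted below 1 FPKM, had groups that did not overlap (0.0101%). Over all 9970 genes other than Fos, 3 did so upward (0.0301%), the others being Egr1 and Dusp1, 2 of the 38 immediate-early genes (5.26%), and 0 did so downward. The median difference of the 32 genes was 1.74 and that of the 68 was -1.85, beside -0.06 over all genes compared, and these medians are fixed in part by the call. Without cells 9 and 16, 57 genes were called higher and 101 lower, of which 25 and 43 were among the 32 and the 68. Many called genes were sparse: 9 of the 32 and 28 of the 68 reached 1 FPKM in fewer than 12 of 23 cells. Some, such as Armcx6 and Lzts3, passed the filter for comparison only through the group where they were high, so their calls are descriptions only. When each cell was first rescaled to the same FPKM sum over loci of at least 300 bp and the cells ranked again, cells 5 and 11 and cells 14 and 17 changed places, and the calls were 70 higher and 38 lower. Genes called higher then made up 64.8% of the calls, in place of 32%, and the median difference of all genes was 0.13, in place of -0.06. Cell 17, which entered the Fos-lowest cells in this way, had the fewest genes at or above 1 FPKM of all libraries (4049). Its part in this shift was not tested. Rescaling with the reported groups kept gave 43 higher and 78 lower (35.5% higher) and a median of -0.04, and 31 of the 32 and 62 of the 68 were among these calls.

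Dnajb1 (chr8:83608175-83611903, plus strand), an HSP40 co-chaperone that delivers unfolded proteins to HSP70, was the gene outside the list that tracked Fos best. It ran from 60.9 to 994 FPKM (median 217) in the Fos-highest cells and from 20.8 to 65.3 FPKM (median 39.0) in the Fos-lowest cells. The groups met in 1 of 64 pairs, and the difference was 2.42 (SD 1.43 and 0.55). Cell 10, which had the most Fos, also had the most Dnajb1. Its rho with Fos was 0.80 over the 23 cells, the second after Dusp1, and 0.36 over the middle cells, in which cell 17 had 4.10 FPKM and cell 11 had 540 FPKM. Without cells 9 and 16 the difference was 2.34. Of the genes called outside the immediate-early list, Dnajb1 alone kept its call under all 13 alternatives of processing and cell choice and with each of the 16 cells left out in turn. Within the list Dusp1 did so, and Fos did so by construction, since it chose the groups. These alternatives reuse cells that made the call, so the kept calls are no independent support.

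Hspa1a, the inducible HSP70 itself, ran from 7.84 to 418 FPKM (median 59.4) against 0.884 to 63.4 FPKM (median 7.96), and its ranges overlapped (57 of 64 pairs). The difference was 2.88 (2.30 without cells 9 and 16) and the rho in the middle cells 0.64. Hspa1a was named after its values were seen, and reads of its near-identical neighbour Hspa1b, which differed by 2.55, may be split between the pair arbitrarily. Of 16 chaperone genes compared, Dnajb1 and Hspa1a were the 2 called higher, 0 were called lower (beside 0.391% and 0.682% of all genes), and the median difference was 0.06, beside -0.06 over all genes. Among constitutive members Hspa8 differed by 0.06, Hsp90ab1 by 0.06 and the endoplasmic reticulum member Hspa5 by -0.16.

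Armcx6, an X-linked armadillo-repeat gene at chrX:134748455-134751419 on the minus strand, ran from 0.327 to 27.6 FPKM (median 11.1) in the Fos-highest cells and from 0 to 0.223 FPKM (median 0.0845) in the Fos-lowest cells. It reached 1 FPKM in 6 of 8 against 0 of 8 cells, and in 2 middle cells. It thus passed the filter for comparison only through the Fos-highest cells, and its groups were parted at values below 1 FPKM. The difference was 2.91, and with a pseudocount of 10 it was 0.95. Pcsk2, the prohormone convertase that cuts neuropeptide precursors such as the Pomc product, ran from 12.2 to 175 FPKM (median 65.5) against 0.284 to 38.9 FPKM (median 2.33). It had the largest difference of the named genes called higher outside the immediate-early list, 3.47, but its groups overlapped (59 of 64 pairs) and its rho in the middle cells was 0.00. No other gene of the 16 on the peptide processing list was called, where 0.391% of all genes were called higher and 0.682% lower. Pcsk2os1 and Pcsk2os2 are antisense transcripts within the Pcsk2 locus, and since no source says that strand was used in counting, their reads cannot be told from those of Pcsk2. The same holds for Jun and its antisense Junos.

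The other 11 named genes called higher have varied known roles. Apip, an enzyme of methionine salvage, ran from 18.2 to 82.8 FPKM against 0.495 to 44.0 FPKM (difference 2.55, 61 of 64 pairs). Tsen34, a subunit of the tRNA splicing endonuclease, ran from 106 to 213 FPKM against 14.1 to 151 FPKM, with a difference of 1.08. Chromatin proteins among them were Ep400, the ATPase of the TIP60 complex (1.08), Chd2, a chromodomain remodeller (1.74), and Gps2, a subunit of the NCoR corepressor (2.61). Smarcal1, a helicase of stalled replication forks, differed by 1.49, with 8.31 to 35.3 FPKM against 1.58 to 13.2 FPKM. Lrrc24, a leucine-rich repeat protein whose locus overlaps Lrrc14, differed by 1.18. Ppcdc, an enzyme of coenzyme A synthesis (1.32), Msi1, the RNA-binding protein Musashi (1.18), Proca1 (1.82) and Lzic (1.17) stayed below 21 FPKM in every cell. Lzic reached 1 FPKM in 3 of 8 Fos-highest cells, and 1 value of 0.0658 FPKM in cell 9 was its only one above 0 in the Fos-lowest cells.

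The genes called lower had larger differences at the extreme. Of the 68, 28 reached 1 FPKM in fewer than 12 cells and 9 did so in all 23. Ptpla, listed as Hacd1 in GENCODE, an enzyme of very long fatty acid synthesis, had the largest difference, -4.06, with 0.200 to 31.7 FPKM (median 0.417) in the Fos-highest and 7.86 to 116 FPKM (median 33.0) in the Fos-lowest cells. Of the Fos-highest cells only cell 23, at 31.7 FPKM, reached the range of the others. Lzts3, a postsynaptic scaffold protein, had 1 of 64 pairs in the other direction: 0 to 0.172 FPKM against 0.142 to 7.91 FPKM, a difference of -1.96. Ube2g2, a ubiquitin-conjugating enzyme that serves degradation of proteins from the endoplasmic reticulum, ran from 0.181 to 33.9 FPKM (median 1.47) against 24.5 to 97.2 FPKM (median 39.0), and only 2 of 64 pairs had the higher value in the Fos-highest cell. Its difference was -3.59, and in the middle cells its rho with Fos was 0.39, the opposite direction.

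Nit2, an omega-amidase whose locus overlaps Tomm70a, differed by -3.73 and Oraov1, listed as LTO1 in GENCODE, an adaptor of iron-sulphur cluster assembly, by -3.72. Vps25, a subunit of the ESCRT-II sorting complex whose locus overlaps Ramp2, ran from 0.426 to 46.1 FPKM against 34.7 to 123 FPKM (-2.96). Lrrc57, which overlaps Haus2, differed by -3.14, Exosc5, a subunit of the RNA exosome, by -2.88, and Birc2, an inhibitor of apoptosis, by -2.03. Golga2, a Golgi matrix protein present in most cells, ran from 0.466 to 15.0 FPKM against 6.11 to 25.3 FPKM (-1.54). Slitrk5, a synaptic adhesion protein (-1.82), Tgfb1i1, a focal adhesion protein (-1.85), Gpatch4 (-1.70) and Zfhx2as, an antisense transcript whose reads cannot be told from those of the overlapping Zfhx2 (-1.86), were under 1 FPKM in most Fos-highest cells. In the middle cells the rho of Slitrk5 with Fos was 0.79 and that of Gpatch4 0.64. Grik1, a kainate receptor subunit named after its values were seen, was the 1 gene called of 15 glutamate receptor genes. Over all genes 0.682% were called lower. None of the Fos-highest cells and 3 of the Fos-lowest cells had 1 FPKM of Grik1, and its highest value was 57.0 FPKM.

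**Figure D3:**
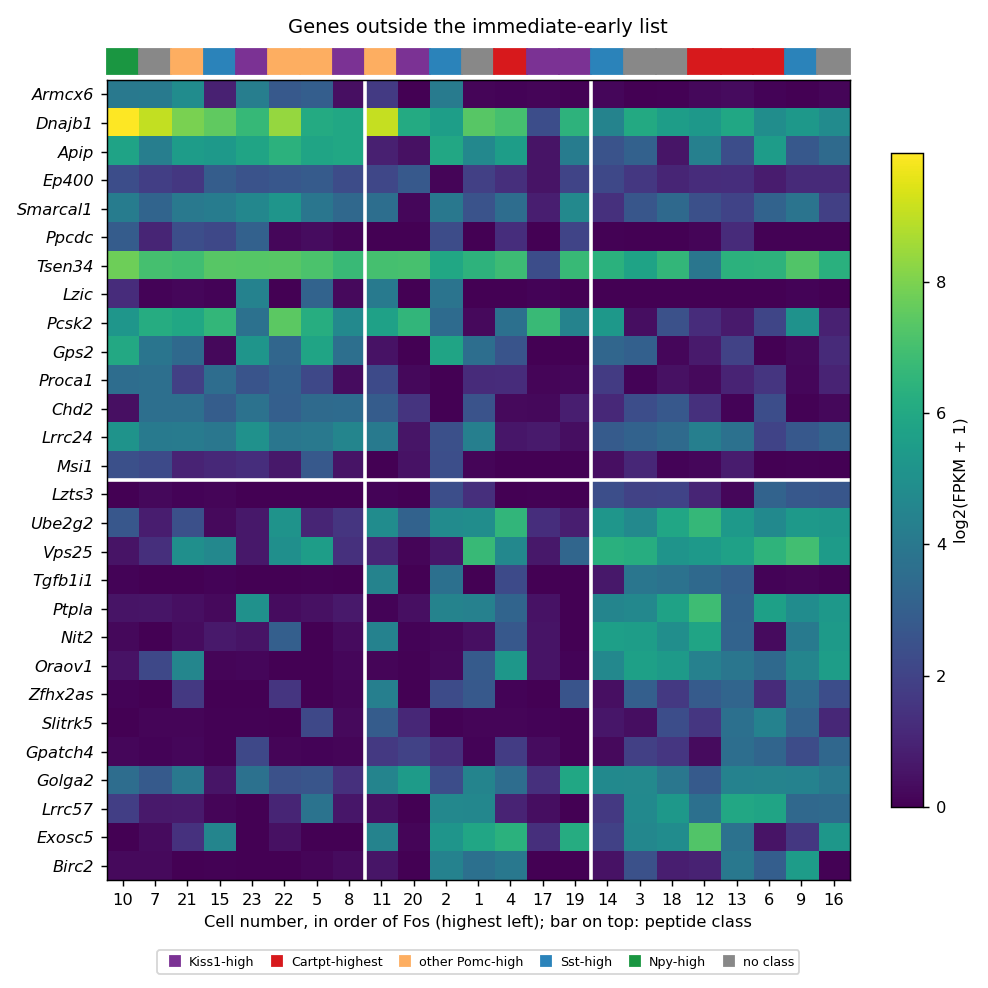
log2(FPKM + 1), by colour, of the 14 named genes called higher (top) and the 14 called lower (bottom) outside the immediate-early list; columns are the 23 cells in order of Fos, white lines part the Fos-highest, middle and Fos-lowest cells, and the bar on top gives the peptide class. Tsen34 and Dnajb1 were above 1 FPKM in every cell, whereas Lzic and Birc2 were below 1 FPKM in most.

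The middle cells are the one measure that the calls did not use. Over them, the median rho with Fos was 0.27 for the 32 genes called higher, with 23 genes above 0 and 7 below. For the 68 genes called lower it was 0.11, with 25 below 0 and 41 above. Over all genes compared the median was 0.07, with 54.3% above 0. For the 7 immediate-early genes called higher besides Fos it was 0.00, with 3 above and 3 below. These correlations rest on 7 cells, of which 5 lay within 421 to 782 FPKM of Fos, and they are descriptions. The median of the 68 genes turned negative without cell 17 (-0.03) or cell 11 (-0.01), and that of the 32 genes was 0.09 without cell 11. For the genes called without cells 9 and 16 the medians were 0.11 (higher) and 0.14 (lower), and for those called after rescaling they were 0.00 and 0.20, so the genes called higher then lay near the median of all genes (0.07 and 0.00).

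**Figure D4:**
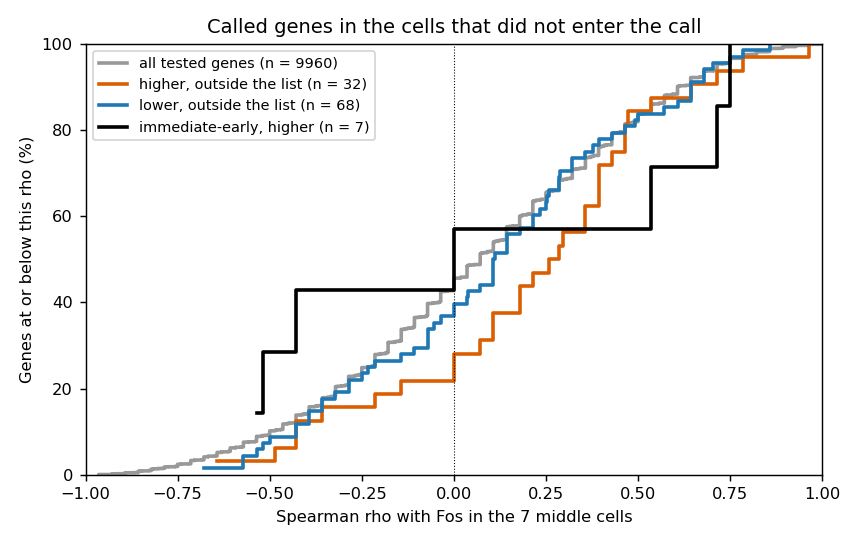
Cumulative share of genes, in percent, by their Spearman rho with Fos over the 7 middle cells, for all genes compared, the 32 called higher and 68 called lower outside the immediate-early list, and the 7 immediate-early genes called besides Fos. The curve of the genes called higher lies to the right of all genes around its median of 0.27, while that of the genes called lower stays near them.

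Pathways that are known to follow neuronal activity, and the unfolded protein response, were set beside these genes. The list of later activity-response genes, which encode secreted and synaptic proteins made after the first wave, had 21 of 29 genes compared, with 0 called in either direction. Over all genes 0.391% were called higher and 0.682% lower, so 0 calls in lists this short lie near those shares. Of the 21 genes, 6 were 2-fold higher and 4 lower, where 7.43% and 10.2% of all genes were. Their median difference was 0.57, but 0.00 when genes too low to be compared were counted. Plk3 differed by 2.06, Gadd45g by 1.51 and Pcsk1 by 1.09, whereas Bdnf, the neurotrophin, differed by -1.37 and Crem, a CREB family member, by -1.56. These genes were named after their values were seen. The most abundant members, Syt4, Scg2, Tsc22d1 and Rheb, differed by -1.07, -0.40, -0.39 and -0.13. Feedback inhibitors of the MAP kinase pathway had 13 of 16 compared, 0 called, 5 at least 2-fold higher and 1 lower (beside the same 7.43% and 10.2%), and a median of 0.96. Among them Rasd1, a dexamethasone-induced Ras protein, differed by 2.66 (48 of 64 pairs). Spry1, named after its values were seen, differed by 2.11 (54 of 64). Kinases and regulators of the MAP kinase and CREB pathway, 35 genes, had 0 called and a median of -0.01. The unfolded protein response had 0 of 15 called, 0 at least 2-fold higher and 5 lower (again beside 7.43% and 10.2%), with a median of -0.53. At its lower end were Asns (-2.09) and Xbp1 (-1.66), both named after their values were seen. Of the 15 genes, 4 differed upward and 11 downward. Its most abundant members, Hsp90b1, Calr, Dnajb9 and Herpud1, differed by -0.13, -0.42, 0.32 and 0.60.

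Title prefix took up little of the Fos difference. JCb5.2 cells made up 5 of the 8 Fos-highest, 4 of the 7 middle and 6 of the 8 Fos-lowest cells, and JCb6 cells the other 3, 3 and 2. Of the variance of log2 Fos, 0.673% lay between the prefixes, beside a median of 3.02% over all genes compared. Within JCb5.2 alone (5 against 6 cells), all 32 genes called higher still differed upward, 30 of them at least 2-fold, and all 68 called lower differed downward, 63 at least 2-fold. There, 48.8% of all genes outside the list differed upward and 11.1% at least 2-fold, and 51.2% downward and 13.5% at least 2-fold. The full rule (2-fold and the same share of pairs) was met there by 22 of the 32 and 41 of the 68, beside 1.12% and 1.9% of all genes. Within JCb6 (3 against 2 cells) 30 of the 32 and 67 of the 68 kept their direction, beside 44.3% and 55.2% of all genes, and 26 and 57 were at least 2-fold apart, beside 17.9% and 24.5%. With only 6 pairs of cells there, the full rule was met by 6.92% and 10.9% of all genes, so it was not read for single genes. These cells were among those that made the call, so this is no independent support. After values were centred within prefix, the median rho with Fos was 0.57 for the 32 genes and -0.53 for the 68, against 0.58 and -0.54 before. Fosb is an exception, with a difference of 3.06 within JCb5.2 and 0.67 within JCb6, and so is Sik1, a salt-inducible kinase, with 2.86 and -0.62; the difference between the prefixes was not tested. Without cells 9 and 16 the medians centred within prefix were 0.55 and -0.49.

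Fos levels by cell type were as follows. Cells were put in peptide classes by the level of Kiss1, Cartpt, Pomc, Sst or Npy, and 5 cells met none. The 4 cells with the highest Cartpt, which also express Pomc, had 319 to 431 FPKM of Fos, and 0 of them were Fos-highest, 1 middle and 3 Fos-lowest. The other 4 Pomc-high cells had 1175 to 1527 FPKM, with 3 Fos-highest and 0 Fos-lowest. The 5 Kiss1-high cells had 421 to 1330 FPKM, with 2 Fos-highest and 0 Fos-lowest. The 4 Sst-high cells were spread from 25.0 to 1435 FPKM, and the Npy-high cell 10 had the most Fos. Over the 18 cells in these 5 classes, 39.9% of the variance of log2 Fos lay between classes, beside a median of 23.8% over all genes compared. With the 5 other cells, which run from 11.2 to 1676 FPKM, as a further level it was 29.3%, beside 23.4%. Shares over classes and over prefixes are not comparable with each other, since they differ in the number of levels. Class and prefix also overlap. All 4 Cartpt-highest and all 4 Sst-high cells were JCb5.2 cells, and all Kiss1-high cells but cell 8 were JCb6 cells. The parts of class and prefix can therefore not be fully told apart.

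Over 22 cells, without the single Npy-high cell and with the 5 unclassed cells kept as a level of their own, centring within class lowered the median rho with Fos from 0.53 to 0.41 for the 32 genes called higher and from -0.51 to -0.26 for the 68 called lower. For the 7 immediate-early genes it went from 0.62 to 0.47. Over the 17 cells in true classes of at least 2 cells, an alternative added after seeing the data, the medians went from 0.53 to 0.38, from -0.47 to -0.22 and from 0.65 to 0.36. Over all 22 cells but 9 and 16, the medians centred within class were 0.42 and -0.31 for the 32 and the 68. Over the 22 cells Dusp1 kept a rho of 0.76 and Chd2 of 0.60, and Dnajb1 had 0.46. Pcsk2 was left with 0.03, Tsen34 with 0.21 and Lzic with 0.17, and among genes called lower Tgfb1i1 was left with 0.01, Exosc5 with -0.07 and Birc2 with -0.07. With the Cartpt-highest cells left out (8 against 5 cells), 29 of the 32 and 61 of the 68 were still at least 2-fold apart, beside 9.3% and 12.2% of all genes, and 23 and 42 met the full rule, beside 0.846% and 1.24%. Without the Kiss1-high cells (6 against 8), 32 and 68 kept their direction, beside 49.1% and 50.9% of all genes, and 29 and 66 were 2-fold apart, beside 9.3% and 10.2%, and 23 and 47 met the full rule, beside 0.856% and 0.936%. In both settings the cells left were among those that made the call, so these counts are no independent support. The class genes themselves were not called: Cartpt differed by -3.03 with 11 of 64 pairs, Kiss1 by 2.48 with 43, and Pomc by -1.39 with 22.

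Depth differed between the groups. The relative depth of a library, read from the steps that single reads leave among low values, was 0.763 to 1.46 (median 1.10) in the Fos-highest and 0.586 to 1.93 (median 1.60) in the Fos-lowest cells, higher in the Fos-highest cell in 13 of 64 pairs. Its rho with Fos was -0.50 over 23 cells and -0.44 without cells 9 and 16. Given depth, the median partial rho with Fos was 0.53 for the 32 genes, -0.48 for the 68 and 0.63 for the 7 immediate-early genes, beside -0.01 over all genes compared, of which 4788 were above 0 and 5182 below. These genes were called on 16 of the same 23 cells, so these values are no independent support. Genes at or above 1 FPKM per cell did not differ in this way: 6373 to 7822 (median 6992.5) against 6425 to 8025 (median 7098.5). The absolute depth is unknown. Summed astrocyte markers were at most 1.42 FPKM in the Fos-highest cells and reached 166 FPKM in Fos-lowest cell 12, nearly all of it Gfap. Of the 6 markers, 0 reached 1 FPKM in a Fos-highest and 2 in a Fos-lowest cell. Without cell 12 the calls were 42 higher and 78 lower, of which 28 and 52 were among the original ones. The microglia markers Cx3cr1 and P2ry12 were below 1 FPKM in all cells of both groups. Mbp, the myelin basic protein gene, reached 1 FPKM in 6 Fos-highest and 1 Fos-lowest cells. The part of these cell types in the calls was not tested.

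**Figure D5:**
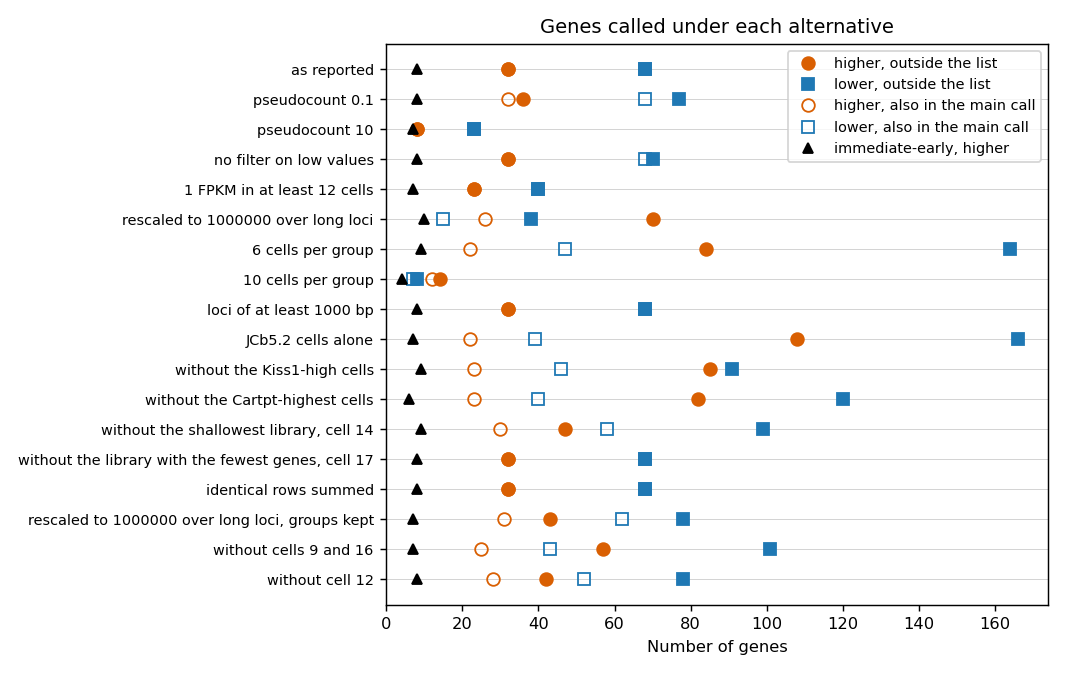
Number of genes called under each alternative: filled circles and squares for higher and lower outside the immediate-early list, open symbols for those also called in the original comparison, and triangles for immediate-early genes called higher. Of single cells left out in turn, cells 12, 14 and 17 are drawn. In the alternatives drawn, immediate-early calls, Fos included, lie between 4 and 10 (11 without cell 18, not drawn), while calls outside the list run from 8 to 108 higher and from 8 to 166 lower.

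Motifs near the starts were counted as a description. A promoter sequence was found for 7468 of the 9971 genes compared. Within 250 bases before the start, TGACG or CGTCA occurred in 13 of 27 genes called higher with a sequence (48.1%), in 17 of 50 called lower (34%), in 5 of 7 immediate-early genes called higher (71.4%) and in 32.9% of all genes compared. The 13 included Dnajb1, Armcx6, Pcsk2, Tsen34, Ppcdc and Proca1. The full element TGACGTCA, which contains the core, was in 1 of the 27 (Celf3) and in 3.35% of all genes compared. The AP-1 letters TGANTCA, which Fos and Jun proteins bind, were in 2 of the 27, 2 of the 50, 0 of the 7 and 4.78% of all genes compared. The heat shock element, bound by heat shock factors, was searched as a single pattern that had to match at every fixed base. It was in 0 of the 27 and 0.549% of all genes compared. Elements that depart from this pattern were not counted, so whether Hspa1a or Dnajb1 has such an element was not tested. The CArG box, bound by serum response factor and searched as CCWWWWWWGG (W is A or T), was in 0 of the 27, in 1 of the 7 (Zfp36) and in 1.41% of all genes compared. Bases more than 250 before the start were not searched, so elements further upstream are not counted for any motif. Both strands were searched, and over all 27025 genes with a promoter sequence TGACG or CGTCA occurred in 19.8%.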

How the data were processed

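A single table with the FPKM of each gene in each cell was deposited. SmartSeq2 amplification was followed by library preparation with NuGen's Ovation Rapid kit, as the labels state. The submitters' processing notes name CASAVA 1.8, TopHat, Cufflinks and the mm10 build. The annotation, the filters and the other tool versions were not given in the sources. The deposited FPKM values were used as they stand; 12 leftover spreadsheet rows without a gene, some with negative numbers, were dropped. Of 23896 rows, 286 identical copies and 27 rows with date-like names were dropped too, and rows of 124 symbols were summed, which gave 23373 genes. SmartSeq2 has no molecular identifiers, so amplified copies count as reads, and depth is unknown beyond relative steps.

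Values were compared as log2(FPKM + 1) by mean difference and by pairs of cells, with no test, since each sample is 1 cell and no label ties cells to mice. Within the immediate-early list, genes at 1 FPKM in at least 12 cells are named. Among other called genes, the 14 higher and 14 lower with the highest share of pairs are named, ties going to the larger difference, without clone-named loci, as are peptide class genes and up to 4 abundant members of each of 27 lists. The report prints those that its results turn on. The members and lists were chosen with earlier results of these data known. Peptide classes used Kiss1 at 500, Cartpt at 10000 with Pomc at 1000, Sst at 500, Pomc at 1000 or Npy at 1000 FPKM, in that order. The call rule and the depth estimate were tested on simulated data. Strand and gene type came from GENCODE and promoters from RefSeq. Alternatives were other pseudocounts, filters, scaling, group sizes and sets of cells. All values were computed in Python 3.11.15 with scipy 1.17.1, pandas 2.3.3 and numpy 2.4.6, and drawn with matplotlib 3.10.9. Some results that the marker lists give are not reported here.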

Additional observations from a re-analysis of the deposited data

Results flagged for a closer look

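For the 8 immediate-early genes called higher, the 28 other named genes, Hspa1a and Grik1, the highest and lowest cell of each group of 8 was compared with its neighbour. In 16 of 76 groups the gap, as a share of the group's whole range, was above Dixon's critical value for 8 values. Chance alone does so in about 1 in 20 groups, and sparse single-cell values are uneven. Fos itself stood high in cell 10 (2469 FPKM). In the Fos-highest cells, Apip was low in cell 7 (18.2 FPKM), Gps2 in cell 15 (0.159) and Chd2 in cell 10 (0.326). Several genes called lower stood high in a single Fos-highest cell. Ptpla had 31.7 FPKM and Gpatch4 3.42 FPKM in cell 23, Nit2 had 7.09 FPKM in cell 22, and Oraov1 had 22.5 FPKM and Grik1 0.720 FPKM in cell 21. Slitrk5 had 3.43 FPKM in cell 5 and Exosc5 had 22.4 FPKM in cell 15. In the Fos-lowest cells, Dusp1 was low in cell 9 (3.25 FPKM), where Lzic was high (0.0658). Tsen34 (14.1 FPKM) and Golga2 (6.11 FPKM) were low in cell 12, and Ppcdc was high in cell 13 (1.32 FPKM).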

How the results depend on the processing

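Calls outside the immediate-early list depended on the settings, and those reported were 32 higher and 68 lower. A pseudocount of 10 gave 8 and 23, and 1 FPKM in at least 12 cells gave 23 and 40. Rescaling with new ranks gave 70 and 38, of which 26 and 15 were among the reported ones, and rescaling with the groups kept gave 43 and 78, of which 31 and 62 were. The first differs from the second by the 4 exchanged cells. Groups of 6 cells gave 84 and 164, and groups of 10 gave 14 and 8. Cell 17, the library with the fewest genes, was among the Fos-lowest cells in the groups of 10. JCb5.2 cells alone gave 108 and 166. Without the Kiss1-high cells the calls were 85 and 91, and without the Cartpt-highest cells 82 and 120. Leaving out cells 9 and 16, an alternative chosen after seeing the data, gave 57 and 101. Leaving out each of the 16 cells of the groups in turn gave 39 to 55 higher and 63 to 99 lower, the most higher without cells 10 (55), 15 (49) or 18 (49). Leaving out each middle cell gave 31 to 32 and 67 to 68. The median correlation in the middle cells was 0 for genes called higher after rescaling. With each middle cell left out it was 0.0857 to 0.324 for genes called higher and -0.0286 to 0.257 for genes called lower, with the sign turned without cell 11 (-0.0143) or 17 (-0.0286) and the top without cell 20. Immediate-early calls reached 11 without cell 18. The cause of the other shifts was not tested. Of 1764 values of named genes under the alternatives, 1730 moved by less than the spread between cells, and 34 moved more. A sign other than the reported one was found in 100 of them, over 46 genes, none of them called higher or lower. All of these values kept the reported groups, apart from cells left out. Groups of 6 or 10 cells are not among them, and both rescaling settings entered with the same values. Genes called on these same cells could hardly change sign, so their kept signs are no independent support. Of the genes outside the list, 23 of 32 higher and 34 of 68 lower kept their call with each of 16 cells left out. No paired analysis was possible because the replicate numbers only count cells in record order and the groups compared share none. Depth can limit low genes, but how far it did so here was not tested. Cell 14, at relative depth 0.586, had 7118 genes at or above 1 FPKM. Cells 6 and 16, both at 1.93, had 7219 and 6496.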

Other observations

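Broad neuronal programmes were near level between the Fos groups, with a few members apart. Of 59 cytosolic ribosomal protein genes and 59 oxidative phosphorylation genes, 0 were called and 0 differed 2-fold, with median differences of 0.09 and -0.12. Over all genes 0.391% were called higher and 0.682% lower, and 7.43% and 10.2% differed 2-fold upward and downward. Of 14 pan-neuronal genes 0 were called, but Uchl1, a neuronal ubiquitin hydrolase, ran from 368 to 751 FPKM in the Fos-highest and from 549 to 1406 FPKM in the Fos-lowest cells, higher in the Fos-highest cell in 8 of 64 pairs with a difference of -0.70. Stmn2, a microtubule regulator of growing axons, differed by -0.99, with 11 of 64 pairs. Pcsk1n, the precursor of the convertase inhibitor proSAAS, went the other way, with 998 to 2270.5 FPKM against 490 to 2032 FPKM, 50 of 64 pairs and a difference of 0.71.

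Among receptors, Npy1r, a receptor for neuropeptide Y, ran from 0.463 to 27.1 FPKM against 1.25 to 160 FPKM (-1.99, 13 of 64 pairs). Without the Cartpt-highest cells this difference was -1.08. Irs2, an adaptor of the insulin receptor, differed by 1.29 (54 of 64 pairs), with 1.87 within JCb5.2 and -0.15 within JCb6. Cacnb3, a calcium channel subunit, differed by 2.25 over all 16 cells, by 3.53 within JCb5.2 and by -0.98 within JCb6, and by 1.09 without the Cartpt-highest cells. None of these genes was called.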
